A study of Mus musculus with 4 samples.

Results

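Among the small RNAs of RAW264.7 cells and of the extracellular vesicles that these cells release, 7 genes whose most abundant transcript is over 400 nt took a large share of the vesicle counts: Gm42427, Gm43305, Gm4316, AI506816, Gm12505, Gm6225 and Cdc37l1. They are 7 of 54362 genes, tRNAs and repeat sequences in the table, of which 40945 had a count, and 36180 of those have a leading transcript that long. The 7 were chosen by name because their levels in the vesicle libraries were high. Their vesicle levels and their ratios of vesicles to cells are therefore given as description. Their features were found by matching transcript names to GENCODE M21, which gave 22 transcripts.

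RAW264.7 is a mouse macrophage-like line. The 4 groups, of 1 library each, were vesicles and cells with a doxycycline-induced hairpin against Dis3l2 (shDis3l2), and vesicles and cells with a non-silencing hairpin (shNS), also induced by doxycycline. All cultures had 1 µg/mL of the drug for 3 days, then medium with vesicle-depleted serum for 24 h, in which the vesicles collected. Vesicles were purified on a sucrose gradient and treated with micrococcal nuclease, libraries were made with a miRNA kit, and reads were 50 nt. No group has a replicate, so no difference below has a replicate check or a p-value, and every interval covers counting error only. The sources used here do not give whether the lines were clones or pools, or whether reads were collapsed to molecules.

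The product of Dis3l2 is an exonuclease of the cytoplasm, and RNAs that carry uridine tails, structured noncoding RNAs among them, are its substrates. A small RNA library holds whole small RNAs and pieces of longer ones, so counts on a transcript of this length stand for fragments. Where a stretch of sequence occurs in several transcripts, a short read inside it fits each of them, and the counting program divides such reads by its own model. Proviruses, the integrated copies of retroviruses, are a common source of such stretches in mouse transcripts. Each is built of gag, pol and env genes between a pair of identical long terminal repeats.

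Depth was 17612856 to 19741041 estimated counts a library. tRNAs took 35.4% of counts in vesicles labelled shDis3l2 and 38.5% in vesicles labelled shNS, against 5.18% and 4.04% in the cell libraries with those labels, and miRNA hairpins 10.5% and 19.1% against 61.2% and 68.3%. On Dis3l2, the targeted gene, there were 13232 counts in the cell library labelled shDis3l2 and 41 in the cell library labelled shNS. The vesicle libraries with those labels had 1894 and 1713. Such counts stand for small RNA fragments, and reads from the induced hairpin itself could also fall on its target. Whether they did was not tested, so these counts do not measure how far Dis3l2 was silenced. Libraries are therefore called by their labels throughout, and a direction between labels is not a direction of Dis3l2 level. All 10 macrophage markers looked for had counts in every library, with Lyz2 at 1364 and 2161 counts in vesicles and 122 and 223 in cells (shDis3l2 and then shNS). Their summed level was 417 and 339 CPM in vesicles and 40.6 and 43.4 CPM in cells in that order, where CPM is counts per 1000000 counts of the library. The 6 fibroblast and epithelial markers summed to at most 3.79 CPM in any library. Of the 6 erythroid and serum markers, which serum in the medium could bring, 3 and 4 were at 0 in the vesicles labelled shDis3l2 and shNS and 3 in each cell library. They summed to 18.7 and 24.4 CPM in vesicles and 0.489 and 0.557 CPM in cells, and Mir451a alone had 157 and 376 counts in vesicles against 3 and 4 in cells. Whether RNA from serum adds to the 7 genes was not tested. Fewer cells of a type and less RNA per cell cannot be told apart in such bulk libraries.

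Together the 7 genes held 13.8% of all counts in the vesicle library labelled shDis3l2 and 9.48% in that labelled shNS, against 0.194% and 0.143% in the cell libraries with those labels. Of the counts on transcripts over 400 nt they held 28.6% and 26.6% in vesicles, and 1.19% and 0.946% in cells. The 4 genes Gm42427, Gm43305, Gm4316 and AI506816 alone made up 12.4% and 7.90% of all vesicle counts, and 0.0505% and 0.0361% of cell counts. They are described first because they share sequence.

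Gm42427 was the feature with the most counts of all in the vesicle library labelled shDis3l2 and ranked 2 in that labelled shNS, among miRNAs and tRNAs. It is annotated on chromosome 5 from 44137980 to 44143271 on the plus strand (GRCm38) as a transcript of 5292 nt with no intron, of the type TEC, used for transcripts that still need experimental proof, and the annotation gives no function. It had 80606 CPM (1419710 counts) in vesicles labelled shDis3l2 and 56099 CPM (1020447 counts) in vesicles labelled shNS, against 329 CPM (6052 counts) and 245 CPM (4841 counts) in the cell libraries with those labels. Both vesicle libraries thus lay far above both cell libraries. The ratio of vesicles to cells was 245 (95% interval 239 to 252) with the label shDis3l2 and 229 (222 to 235) with the label shNS.

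Gm43305 is annotated on the minus strand of chromosome 14 from 54292443 to 54297456, where a retained-intron transcript of 4901 nt held 98.7% and 99.6% of its vesicle counts (shDis3l2 and shNS). It had 30607 CPM in vesicles labelled shDis3l2 and 15217 CPM in vesicles labelled shNS, against 104 and 71.1 CPM in the cell libraries with those labels. It was the second long gene by counts in both vesicle libraries, with ratios of vesicles to cells of 293 (280 to 307) and 214 (203 to 226).

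Gm4316 is a long intergenic noncoding gene on the plus strand of chromosome 8 from 123165255 to 123178765. It overlaps the gene Gm20388 on the same strand. No transcript of Gm20388 in the table shared a run of at least 30 nt with the leading Gm4316 transcript. The level of Gm4316 was 6672 CPM in vesicles labelled shDis3l2 and 4157 CPM in vesicles labelled shNS, against 47.6 and 26.9 CPM in the cell libraries with those labels. AI506816, a processed transcript on the minus strand of chromosome 5 from 23698296 to 23712667 with the miRNA gene Mir3096 inside it, had 6509 CPM and 3570 CPM in vesicles and 24.9 and 18.2 CPM in cells in the same order. For Gm4316 the ratios of vesicles to cells were 140 and 154 with the labels shDis3l2 and shNS, and for AI506816 they were 261 and 195. A transcript of 2617 nt held at least 99.7% of the Gm4316 counts of every library, and a transcript of 2804 nt at least 99.6% of those of AI506816.

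**Figure D1:**
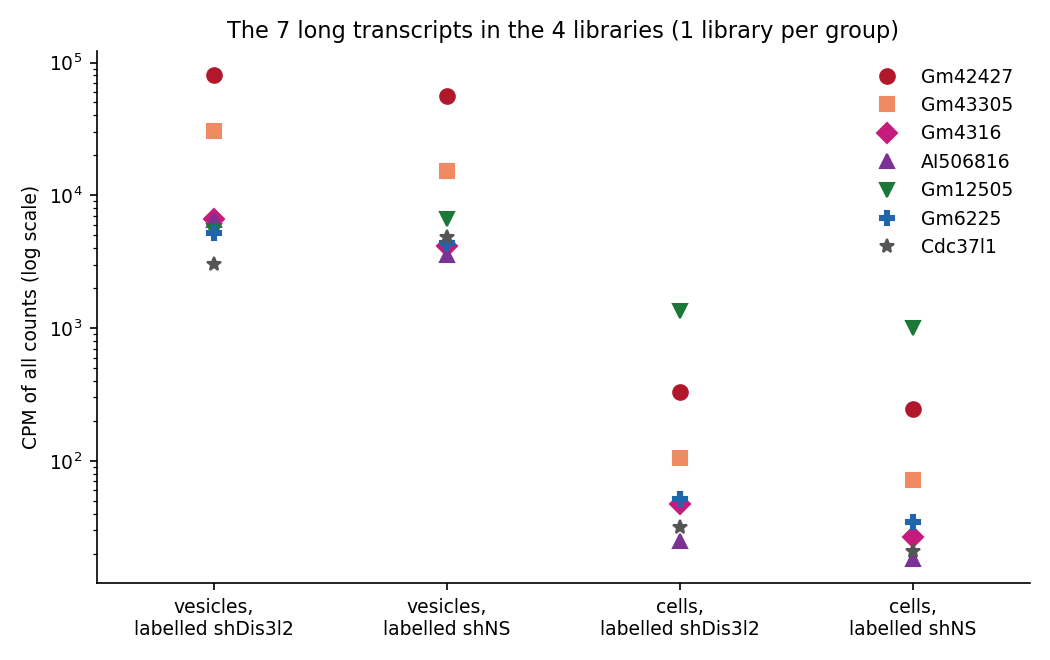
CPM of all counts on a log axis for the 7 genes, 1 point per gene and library, with the vesicle libraries on the left. Every gene is higher in both vesicle libraries than in both cell libraries, from 3027 CPM (Cdc37l1) to 80606 CPM (Gm42427) in vesicles labelled shDis3l2, and Gm12505 is the highest of the 7 in both cell libraries.

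The leading transcripts of these 4 genes shared exact runs of sequence with each other in all 6 pairs, always on the same strand. The longest run of a pair was between 104 and 180 nt. The other 15 of the 21 pairs among the 7 genes shared no run of even 20 nt. In all, 13 runs of 20 to 61 nt were present in all 4 transcripts, 7 of them at least 30 nt, and together they span 454 nt. Followed along the transcripts, with each run placed at its first occurrence, they kept the same order in 11 of 12 steps. The run out of order is the last, placed at 49 to 68 in Gm4316. The stretch that contains this run, positions 5185 to 5241 of Gm42427, recurs within Gm4316. The order there may therefore depend on which copy is taken. In Gm42427 the first 6 lie between positions 2426 and 2757, counted from the transcript's start, and the others between 4509 and 5228. In Gm43305 the same runs lie between 3820 and 4836, in Gm4316, by first occurrence, between 49 and 1342, and in AI506816 up to 2740.

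Counting every annotated transcript of other genes as a possible source, runs of at least 30 nt covered 62.4% of the Gm4316 transcript, 59.5% of Gm42427, 52.2% of AI506816 and 29.8% of Gm43305. The rest of each transcript, 2145 nt in Gm42427 and 3441 nt in Gm43305, held no such run. Where along a transcript its reads lay is not in the table, so the part of each count that falls in a shared run was not measured here.

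The chromosome 5 locus of Gm42427 holds a direct repeat. Gm42429, a 558 nt gene at chr5:44134393-44134950 on the same strand, is identical over its whole length to positions 4699 to 5256 of Gm42427, that is chr5:44142678-44143235. The copies start 8285 nt apart and the repeat unit with both copies spans 8843 nt. Between them lies Gm42428, of 302 nt at chr5:44136620-44136921, with 1982 CPM in vesicles labelled shDis3l2 and 1508 CPM in vesicles labelled shNS, against 7.18 and 5.04 CPM in the cell libraries. Gm42429 had 0 counts in all 4 libraries, which with a floor of 3 counts allows up to 0.170 CPM in any of them. Its letters are all present in Gm42427, so reads from either copy could have been assigned to the longer gene.

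A pair of identical repeats around an internal stretch is how a provirus is built. As background, the mouse genome carries many proviruses of the murine leukaemia virus class, and RAW264.7 came from a tumour raised with Abelson murine leukaemia virus. By general knowledge of such elements, the shared runs resemble the end of pol, the end of env and the long terminal repeat. No repeat or virus reference was searched, so this assignment was not tested, and reads from these 4 loci, from another copy in the genome and from virus cannot be told apart in these counts.

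**Figure D2:**
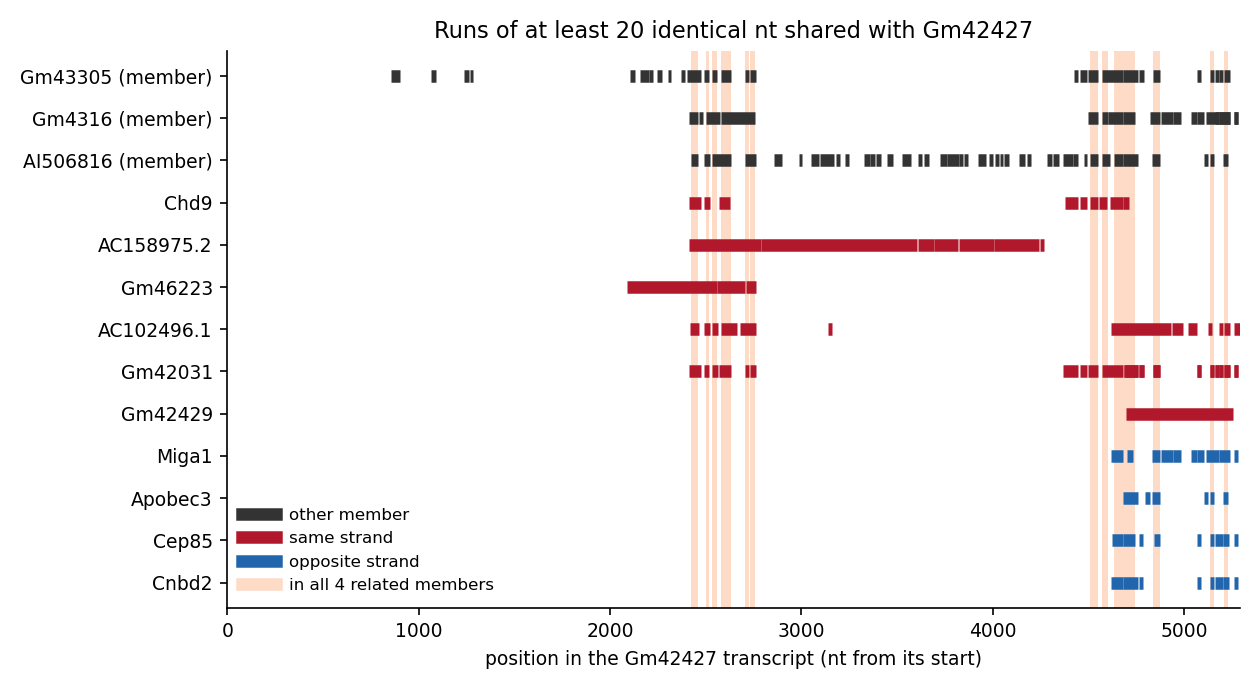
Runs of at least 20 identical nt between the Gm42427 transcript and 13 other transcripts, by position from the transcript's start (x axis, nt), with the other related genes in dark grey, same-strand transcripts of other genes in red and opposite-strand ones in blue. The 13 shaded runs present in all 4 related genes fall between positions 2426 and 2757 and between 4509 and 5228, while the opposite-strand transcripts lie only in the second region.

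Other genes that share stretches with the 4 related genes were then compared by strand. Outside the 4, 27 transcripts of 24 genes shared a run of at least 30 nt with at least 1 of them on the same strand, and 12 transcripts of 11 genes on the opposite strand. At or above 100 CPM in both vesicle libraries were 6 of the 27 and 1 of the 12. The same-strand transcripts summed to 9536 CPM in vesicles labelled shDis3l2 and 6772 CPM in vesicles labelled shNS, against 41.8 and 46.0 CPM in cells. The opposite-strand ones summed to 280 and 253 CPM in vesicles and 28.3 and 20.0 CPM in cells, of which D10Wsu102e, a transcript of 123179 nt, held 274 and 247 CPM in vesicles.

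The 6 high same-strand transcripts come from Chd9, AC158975.2, Gm42428, Gm46223, AC102496.1 and Gm42031. A 759 nt processed transcript of Chd9, a chromodomain helicase gene, had 3542 CPM in vesicles labelled shDis3l2 and 1107 CPM in vesicles labelled shNS, against 8.66 and 7.15 CPM in cells. AC158975.2, which shares 818 nt in a run with Gm42427, had 1649 and 2479 CPM in vesicles and 8.03 and 13.7 CPM in cells in the same order. Gm46223, a pseudogene with a run of 468 nt, had 1725 and 1406 CPM in vesicles and 10.2 and 13.6 CPM in cells. Ratios of vesicles to cells among the 6 ran from 169 (Gm46223) to 598 (AC102496.1) with the label shDis3l2 and from 103 (Gm46223) to 382 (Gm42031) with the label shNS. The upper ends rest on few cell counts. AC102496.1 had 11.3 estimated counts in cells labelled shDis3l2, and Gm42031 had 7.14 in cells labelled shNS. The levels of the 6 cover a wide range, but each was over 100 times higher in vesicles than in cells under both labels.

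With a minimum of 200 shared nt, a limit set after the data were examined, 10 same-strand and 4 opposite-strand transcripts remained. This limit just leaves out D10Wsu102e, which shares 197 nt in runs of at least 30 nt. When runs of at least 20 nt are counted, 6 opposite-strand transcripts reach 200 shared nt, and the highest of them has 274 and 247 CPM in vesicles. The 10 had medians of 308 CPM in vesicles labelled shDis3l2 and 129 CPM in vesicles labelled shNS. The 4 on the opposite strand, from Miga1, Apobec3, Cep85 and Cnbd2, reached at most 0.560 and 0.642 CPM. Miga1, a mitochondrial fusion gene whose transcript holds 932 shared nt, had 0.167 CPM in vesicles labelled shDis3l2 and 0.446 CPM in vesicles labelled shNS. Sharing on the same strand did not always go with a high count: Gm42429, Gm37416 and Gm48275 were at 0 in all 4 libraries and Gm10524 had 1.75 and 1.58 CPM in vesicles. The strand difference is a description of 14 transcripts that each share sequence with at least 1 of the 4 related genes. Several of them hold the same stretches, so they are not independent. The opposite-strand transcripts share the second region of Gm42427, from position 4620 on, as do the low same-strand transcripts of Gm42429 and Gm10524. Of the 6 high transcripts, Chd9, AC158975.2, Gm46223, AC102496.1 and Gm42031 hold runs of the first region, and so does Gm37416, which is at 0. Chd9, AC102496.1 and Gm42031 hold runs of the second region as well, in AC102496.1 1 of 317 nt. Gm42428, the remaining high transcript, shares no run of at least 30 nt with Gm42427. Strand and region therefore cannot be told apart, and the strand setting of the counting is not in the sources used here.

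**Figure D3:**
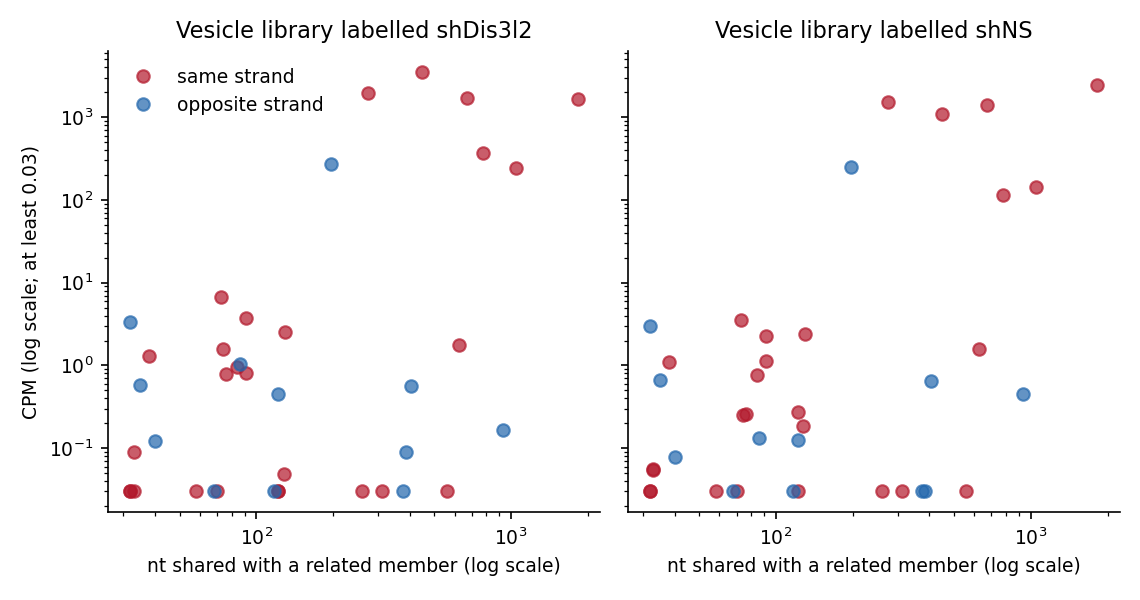
CPM in each vesicle library (y axis, log scale, values under 0.03 drawn at 0.03) against the nt shared with a related gene (x axis, log scale) for 27 same-strand (red) and 12 opposite-strand (blue) transcripts. At 200 shared nt or more, 6 of 10 red points lie above 100 CPM and the 4 blue points lie below 1 CPM in both panels, while a blue point at 197 nt (D10Wsu102e) lies at 274 and 247 CPM.

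Gm12505 differed from the others in its cell level. It is a long intergenic noncoding gene on the minus strand of chromosome 4 from 55410443 to 55418842, with 1 transcript of 757 nt in 4 exons. It had 5338 CPM in vesicles labelled shDis3l2 and 6578 CPM in vesicles labelled shNS, against 1355 and 1009 CPM in the cell libraries with those labels. The ratio of vesicles to cells was 3.94 (3.88 to 3.99) with the label shDis3l2 and 6.52 (6.42 to 6.62) with the label shNS. In cells it had the most counts of the 7 genes, and its ratio is the smallest of the 7 under both labels.

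Its sequence is shown because exon 1 holds all of its runs of 30 nt or more and repeats itself. The exon, chr4:55418681-55418842 on the minus strand (GRCm38, 162 nt), has a repeat of 11 nt at positions 11 to 21 and 46 to 56, and a repeat of 15 nt at positions 23 to 37 and 58 to 72. Below it stands a window of the Gm47916 transcript at chr13:33569153-33569214 on the plus strand, which shares 22 nt with positions 11 to 32 of the exon. Capitals mark the repeats in the exon and the shared run in the window.
Gm12505 exon 1: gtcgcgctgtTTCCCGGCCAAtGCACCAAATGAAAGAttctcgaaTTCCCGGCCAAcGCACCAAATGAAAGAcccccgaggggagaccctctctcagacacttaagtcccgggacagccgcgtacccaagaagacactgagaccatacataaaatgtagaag
Gm47916 window: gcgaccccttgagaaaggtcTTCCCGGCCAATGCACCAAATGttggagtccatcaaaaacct

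The capitals contain CCA, the ending that cells add to tRNAs, and by textbook knowledge the stretch up to it resembles the 3′ end of a glycine tRNA. In the exon CCA is part of the annotated gene sequence, and the capitals run on past it. The sequences of tRNAs were not compared here. The 4 tRNA-Gly-GCC features had 35532 CPM in vesicles labelled shDis3l2 and 27370 CPM in vesicles labelled shNS, against 10807 and 6763 CPM in the cell libraries. Their ratios of vesicles to cells were 3.29 and 4.05, beside 3.94 and 6.52 for Gm12505. By label the tRNA features had a ratio of shDis3l2 to shNS of 1.30 in vesicles and 1.60 in cells, and Gm12505 0.812 and 1.34. Whether tRNA fragments account for counts on Gm12505 was not tested.

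Other transcripts with pieces of this exon had profiles of several kinds. Gm47916, with the 22 nt run, had 16.2 estimated counts in vesicles labelled shDis3l2 and 15.4 in vesicles labelled shNS, against 3738 and 2073 in the cell libraries, the opposite direction to Gm12505. AC161438.1, with 53 nt of the 3′ part of the exon (positions 110 to 162), had 424 and 471 CPM in vesicles and 59.3 and 58.5 CPM in cells. Its ratios of vesicles to cells were 7.15 and 8.05. Gm29371 and Gm9973, with 70 and 59 nt of the same end, had at most 15.5 CPM in any library. On the opposite strand, Gm48377, with 30 nt (positions 46 to 75), had 232 and 45.0 CPM in vesicles and 2.00 and 0.816 CPM in cells. Gm20400, with 46 nt (positions 11 to 56), had 36.5 and 7.54 CPM in vesicles and 0.114 and 0.0517 CPM in cells. Gm42031, which also shares runs with the 4 related genes, held 21 nt (positions 61 to 81) and had 243 and 145 CPM in vesicles and 0.648 and 0.362 CPM in cells. Gm46224, with 25 nt (positions 51 to 75), had at most 0.507 CPM in any library.

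Gm6225 lies on the plus strand of chromosome 18 from 3336680 to 3366863, where it overlaps Crem, a gene for a cAMP-responsive transcription factor, on the other strand. Its retained-intron transcript of 6745 nt held all of its counts within rounding, and its other transcript was at 0 in all libraries. It had 5210 CPM in vesicles labelled shDis3l2 and 4358 CPM in vesicles labelled shNS, against 51.6 and 34.9 CPM in the cell libraries with those labels. The ratio of vesicles to cells was 101 (94.6 to 108) with the label shDis3l2 and 125 (116 to 135) with the label shNS. Runs of at least 30 nt, shared with 405 genes, covered 12.9% of it. The longest run, 370 nt, is the antisense overlap with Crem, whose 3 transcripts with the longest runs had at most 0.313 CPM in any library. The 7 SINE consensus features of the table, short repeats that many genes contain, summed to 50.3 and 27.7 CPM in vesicles and 16.1 CPM in each cell library.

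Cdc37l1 is the 1 protein-coding gene of the 7 and encodes a relative of Cdc37, which helps Hsp90 load its client kinases. It lies on the plus strand of chromosome 19 from 28990352 to 29026681 and overlaps Ak3 and Gm10136 on the other strand. It had 53309 counts (3027 CPM) in vesicles labelled shDis3l2 and 88220 counts (4850 CPM) in vesicles labelled shNS, against 583 and 414 counts in the cell libraries with those labels. The ratio of vesicles to cells was 95.5 (88.1 to 104) with the label shDis3l2 and 231 (210 to 255) with the label shNS. No run of 30 nt was shared with another gene, the longest run being 27 nt.

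The isoforms of Cdc37l1 divided differently in vesicles and cells. The isoform of 4079 nt held 99.8% of the gene's counts in vesicles labelled shDis3l2 and 99.6% in vesicles labelled shNS, against 70.7% and 53.7% in the cell libraries. The isoform of 4163 nt held 0.110% and 0.376% in vesicles and 27.4% and 43.6% in cells. In estimated counts this was 53213 and 87853 for the 4079 nt isoform in vesicles against 412 and 222 in cells, and 58.5 and 332 for the 4163 nt isoform in vesicles against 159 and 181 in cells. What the 4079 nt isoform has and no other isoform of the gene has, beyond the first bases, is 635 nt of the 3′ untranslated region at chr19:29015137-29015771. For this gene no stretch of 30 nt or more shared with another annotated gene was found. Runs of at least 20 nt, shared with 151 genes, covered 7.48% of the isoform.

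**Figure D4:**
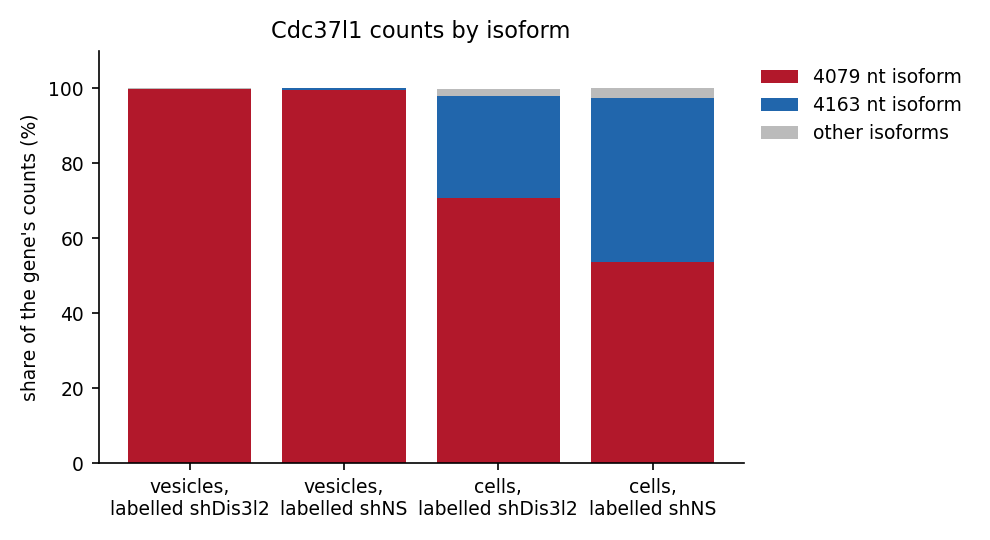
Share of the Cdc37l1 counts (%) assigned to each isoform in the 4 libraries, with vesicles on the left. The 4079 nt isoform holds 99.8% and 99.6% in vesicles and 70.7% and 53.7% in cells, and the 4163 nt isoform holds most of the rest in cells.

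Cdc37l1 was set beside 14 genes of the Hsp90 co-chaperone system. Here and below a gene counts as apart when its CPM differs at least 2-fold with a 95% interval that excludes 1, among genes with at least 100 counts over both libraries. With the label shDis3l2, 12 of the 13 measured were higher in vesicles and 1, Hspa8, was lower, with a median log2 ratio of 2.59 beside 2.42 over all genes. With the label shNS, 12 of 13 were higher and none lower, with a median of 2.64 beside 2.19. The background is that 76.9% of 7387 genes tested were higher in vesicles and 12.9% lower with the label shDis3l2, and 74.6% of 6852 higher and 13.6% lower with the label shNS. Of the genes called, 85.6% were higher with the label shDis3l2 and 84.6% with the label shNS, and these shares were 75.4% and 73.7% when scaled by DESeq2 size factors. Hspa4, a chaperone of the Hsp110 family, was the one with a ratio of the size of Cdc37l1: it had 574 and 464 CPM in vesicles against 5.54 and 4.00 CPM in cells, ratios of 103 and 115. Cdc37 itself had 231 and 210 counts in vesicles and 62 and 80 in cells. Between labels, 1 of 4 measured genes was higher in cells (Hspa8, 5.52-fold), and none of 13 was called in vesicles, with median log2 ratios of shDis3l2 to shNS of 0.24 in vesicles and 0.63 in cells.

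Against that background, 76.9% and 74.6% of genes, 7 of 7 genes were higher in vesicles than in cells under both labels, which their choice fixes and which says nothing further about them. The ratios share their vesicle counts with that choice, so their ranks are a description too. Among long genes with enough counts, ratios ranked from 137 (Gm43305) to 4314 (Gm12505) of 6624 with the label shDis3l2, and from 111 (Cdc37l1) to 2237 (Gm12505) of 6115 with the label shNS. The median log2 ratio of long genes was 2.50 and 2.27. Under each label over 100 other long genes had a larger ratio than any of the 7. Of the summed cell counts of the 7 genes, Gm12505 held 24960 of 35803 with the label shDis3l2 and 19915 of 28153 with the label shNS. The ratio of the summed 7 genes, which thus describes no single gene, was 71.0 (70.2 to 71.7) with the label shDis3l2 and 66.5 (65.7 to 67.3) with the label shNS. Scaled by edgeR's TMM, which put the median log2 ratio of all genes at 1.22 and 1.19, it was 30.8 and 33.4. DESeq2 size factors gave medians of 1.17 and 1.08 and ratios of 29.9 and 30.8. Under these scales Gm12505 with the label shDis3l2 was no longer called, at 1.71 and 1.66.

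**Figure D5:**
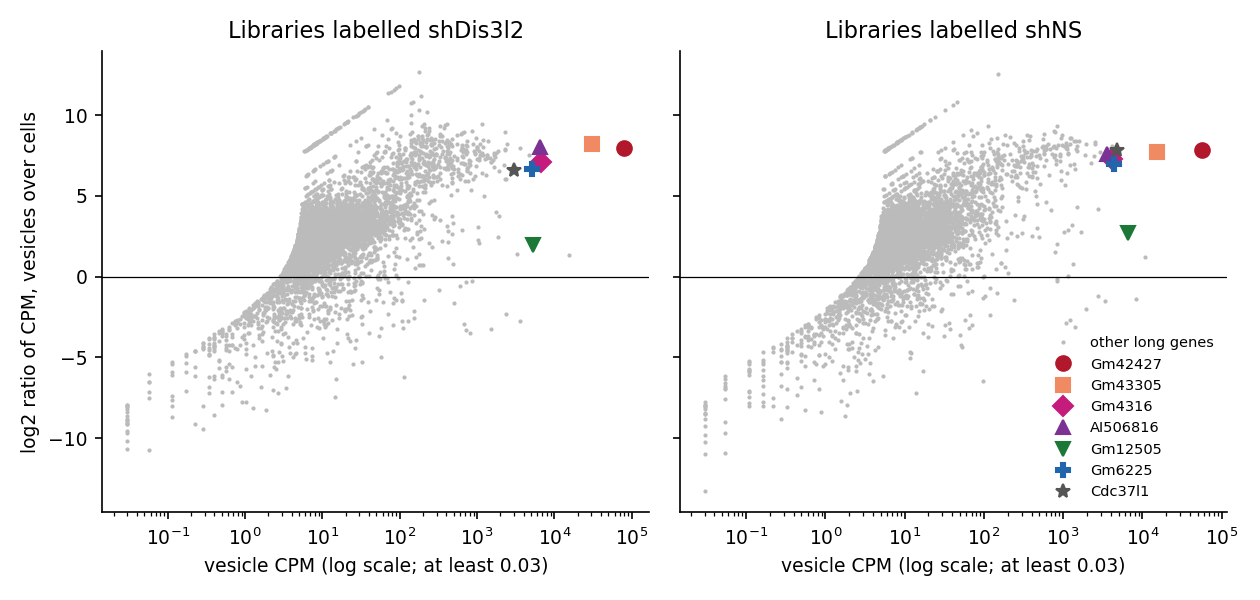
Log2 ratio of CPM, vesicles over cells (y axis), against vesicle CPM (x axis, log scale, values under 0.03 drawn at 0.03) for long genes with at least 100 counts over both libraries, with the 7 genes marked. Gm42427 and Gm43305 lie farthest right in both panels, Gm12505 lies well below the other 6, and many grey points at lower CPM have larger ratios.

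The 7 genes were not all of the top long genes. By summed vesicle CPM, CT010467.1 ranked 3 and Mir17hg, the host of the miR-17-92 cluster, ranked 4 of the long genes, and Itfg2 stood just above Cdc37l1 and Gm37895 just below it. CT010467.1 had 15514 CPM in vesicles labelled shDis3l2 and 10794 CPM in vesicles labelled shNS, against 6030 and 4574 CPM in cells. Mir17hg had 3584 and 8382 CPM in vesicles and 23548 and 22082 CPM in cells. Itfg2 had 4699 and 4127 CPM in vesicles and 25.7 and 15.4 CPM in cells, and Gm37895 3072 and 2928 CPM in vesicles and 28.3 and 14.0 CPM in cells. Over all genes Rn7s1 and Vaultrc5, the 7SL and vault RNAs, were among the nearest to Cdc37l1, with 4694 and 3633 CPM in vesicles labelled shDis3l2 and 3055 and 4180 CPM in vesicles labelled shNS. The other neighbours were Mirlet7f-2 and n-R5-8s1, at 2976 and 4720 CPM in vesicles labelled shDis3l2 and 5843 and 3978 CPM in vesicles labelled shNS. Of the 10 features with the most vesicle CPM, 7 were tRNA features and the others were Gm42427, Gm43305 and Mir16-1. The top tRNA, tRNA-Lys-CTT-3-1, had 50325 CPM in vesicles labelled shDis3l2 and 80469 CPM in vesicles labelled shNS, against 1550 and 1321 CPM in cells.

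Levels between genes were compared per kb of the leading transcript. In vesicles labelled shDis3l2 the order was Gm42427 (15232 CPM per kb), Gm12505 (7052), Gm43305 (6245), Gm4316 (2549), AI506816 (2321), Gm6225 (772) and Cdc37l1 (742). In vesicles labelled shNS it was Gm42427 (10601 CPM per kb), Gm12505 (8690), Gm43305 (3105), Gm4316 (1589), AI506816 (1273), Cdc37l1 (1189) and Gm6225 (646). Neighbours in these orders were apart by more than counting error, and Gm6225 and Cdc37l1 changed places between the labels. In cells the order began with Gm12505 (1790 and 1333 CPM per kb with the labels shDis3l2 and shNS), far above Gm42427 (62.1 and 46.3). Cdc37l1 (7.76 and 5.14) and Gm6225 (7.66 and 5.17) could not be told apart there within counting error.

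Between the labels, all 7 ratios of shDis3l2 to shNS lay above 1 in cells, while 5 lay above and 2 below 1 in vesicles. In cells none of the 7 was called, while 13.8% of 3404 genes tested were higher and 4.99% lower with the label shDis3l2. Their ratios of shDis3l2 to shNS ran from 1.34 (Gm42427 and Gm12505) to 1.77 (Gm4316), each with an interval above 1, and their median log2 ratio was 0.55 beside 0.10 over all genes. The ratio of the summed 7 genes was 1.36 (1.34 to 1.38).

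In vesicles 1 of the 7, Gm43305, was called higher with the label shDis3l2, where 10.4% of 8460 genes tested were higher and 2.52% lower. Its ratio was 2.01 (2.00 to 2.02), at the edge of the 2-fold limit, and other settings left it uncalled, at 1.68 (TMM), 1.75 (DESeq2) and 1.77 (total without the most abundant transcripts), as did its leading transcript alone, at 1.99. AI506816 had a ratio of 1.82 (1.81 to 1.84), Gm4316 1.60 (1.59 to 1.62), Gm42427 1.44 (1.43 to 1.44) and Gm6225 1.20 (1.18 to 1.21). Gm6225 lay at 0.997 by TMM. Gm12505 had a ratio of 0.812 (0.805 to 0.818) and Cdc37l1 of 0.624 (0.617 to 0.631), and both were above 1, at 1.47 and 1.13, when scaled to the miRNA total. The median log2 ratio of the 7 was 0.52 beside 0.31 over all genes. That median of all genes was 0.05 by TMM, 0.11 by DESeq2, 0.13 by the total without the most abundant transcripts and 1.17 by the miRNA total. Of all genes 883 were called higher and 213 lower, but 607 and 377 by TMM, 660 and 334 by DESeq2, 677 and 324 by the total without the most abundant transcripts, and 5486 and 51 by the miRNA total. Within each scale the 4 related genes had the larger ratios of shDis3l2 to shNS, ahead of Gm6225, Gm12505 and Cdc37l1, since a scale moves all by the same factor.

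The genes whose profile lay nearest to that of the summed 7 genes over the 4 libraries, among 2045 with at least 1000 counts, were Plscr5, Zc3h12c and Cd8b1. The measure was the Euclidean distance of centred log2 CPM, which was 0.0865, 0.197 and 0.227. The summed profile is a mixture, with most cell counts from Gm12505 and most vesicle counts from Gm42427. Plscr5 had 600 CPM in vesicles labelled shDis3l2 and 404 CPM in vesicles labelled shNS, against 7.38 and 5.32 CPM in cells. Zc3h12c had 560 and 415 CPM in vesicles and 7.28 and 4.66 CPM in cells, and Cd8b1 had 1290 and 935 CPM in vesicles and 16.3 and 14.8 CPM in cells.

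Other lists of genes that can gather or lend reads were set beside the 7. Of the 12 genes listed as collectors of ribosomal RNA reads, 7 were in the table. Higher in vesicles than in cells were 4 of 4 measured with the label shDis3l2 and 3 of 4 with the label shNS. Over all genes tested the shares were 76.9% and 74.6%. The listed genes summed to 3331 and 1357 CPM in vesicles and 1251 and 767 CPM in cells. Most of this was Lars2, a mitochondrial leucyl-tRNA synthetase gene, with 57830 and 24018 counts in vesicles and 22862 and 14987 in cells. Lars2 was the 1 of 5 called between labels in vesicles, 2.49-fold higher with the label shDis3l2, and 0 of 2 were called in cells. For 21 structured RNAs listed, 18 gene entries were found, with more than 1 for Rmrp. They summed to 29093 and 28143 CPM in vesicles and 17797 and 13465 CPM in cells. In vesicles this was below the 137970 and 94829 CPM of the 7 genes. Much of the cell sums came from the longer mitochondrial ribosomal RNAs mt-Rnr2 (8248 and 8681 CPM) and mt-Rnr1 (1832 and 1103 CPM). Of 14 measured, 7 were higher and 5 lower in vesicles with the label shDis3l2, and 8 higher and 3 lower with the label shNS. Among those lower under both labels were mt-Rnr1, mt-Rnr2 and Rnu12. Between labels none of the 14 was called in vesicles and 5 were higher in cells with the label shDis3l2, Rnu12 by 8.84-fold and Rny3 by 4.41-fold among them.

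Transcripts over 400 nt took 48.3% and 35.7% of all counts in vesicles (shDis3l2 and shNS) and 16.4% and 15.1% in cells. Of 11 genes listed as long nuclear noncoding RNAs, 10 were in the table. They summed to 301 and 353 CPM in vesicles (shDis3l2 and shNS) against 2471 and 1709 CPM in cells. Most of the cell sums came from the snoRNA host genes Snhg1 (1079 and 627 CPM) and Gas5 (1299 and 967 CPM). The sums therefore do not describe the other genes of the list. Of 8 measured, 2 were higher and 3 lower in vesicles with the label shDis3l2, and 3 higher and 4 lower with the label shNS, with median log2 ratios of -0.37 and -0.54. Malat1 had 3257 and 3572 counts in vesicles and 473 and 724 in cells, and Gas5, a snoRNA host gene, had 575 and 931 in vesicles and 23921 and 19081 in cells. Between labels, Snhg1 was the 1 of 7 lower with shDis3l2 in vesicles (ratio 0.495), and Firre the 1 of 7 higher in cells (2.04). Of the macrophage markers, 9 of 9 measured were higher in vesicles than in cells under both labels, beside 76.9% and 74.6% of all genes tested. Their median log2 ratios were 2.51 (shDis3l2) and 2.75 (shNS), beside 2.42 and 2.19 over all genes. Between labels Cd14 was higher (3.35) and Ctsb lower (0.461) with shDis3l2 in vesicles, and none of 6 was called in cells. Of the erythroid and serum markers, 2 of 2 measured with the label shDis3l2 and 1 of 1 with the label shNS were higher in vesicles, beside the same shares of all genes. Between labels Hbb-bs was higher (2.62) and Mir451a lower (0.432) in vesicles with shDis3l2, and none was measured in cells. No fibroblast or epithelial marker reached the minimum of counts in any of the 4 comparisons.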

How the data were processed

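The deposited table holds estimated counts per transcript, tRNA and SINE sequence; per the submitters' processing notes cutadapt, Salmon and Novoalign were used with GRCm38 or mm10, without versions. Of 141239 features, 1201 have no name in GENCODE M21 and entered totals only. Strand setting, use of molecular tags and repeat handling are not given in these sources. Transcripts were summed per gene and then rounded, and CPM is counts per 1000000 counts of all features. Ratios used a pseudocount of 0.5, with exact conditional 95% intervals. Intervals of levels were exact Poisson intervals. Shared runs were found by exact matching among the GENCODE M21 transcripts on both strands, with a minimum of 30 nt. Places in the genome that hold a run were not analysed here.

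The genes and lists were chosen with earlier results of these data known. Beside the 7 genes, the text names up to 3 run partners per gene, the 3 nearest profiles, measured list members, the genes next to Cdc37l1 and the 10 most abundant. Transcripts compared by strand, Gm47916, Gm48377, Gm20400, Gm46224, CT010467.1, Mir17hg, Itfg2 and Gm37895 were named after their values were seen.

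The call rule was tested on simulated counts. Python 3.11, pandas 2.3.3, numpy 2.4.6, scipy 1.17.1, R 4.3.3, edgeR 4.0.16 and DESeq2 1.42.0 were used, the last 2 for scale factors only. Alternatives were other scales, no rounding, the leading transcript alone, a pseudocount of 5, thinning, other minimums of counts, a 4-fold limit and other run lengths.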

Additional observations from a re-analysis of the deposited data

Results flagged for a closer look

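Gm12505 and Cdc37l1 had label ratios on opposite sides of 1 in the compartments. With the label shDis3l2 over shNS, Gm12505 had a ratio of 0.812 in vesicles and 1.34 in cells, and Cdc37l1 had 0.624 in vesicles and 1.51 in cells. Each value rests on 1 library per group, so the difference between compartments was not tested. Scaled to the miRNA total, the vesicle ratios were 1.47 and 1.13, on the same side of 1 as in cells.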

How the results depend on the processing

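No paired analysis was possible because each group has 1 library and the labels carry no replicate numbers; leaving out a replicate could not be done either. Summed levels of the 7 genes (CPM; vesicles shDis3l2, vesicles shNS, cells shDis3l2, cells shNS) were 86135, 70958, 2794 and 2124 by TMM, 85468, 67591, 2860 and 2196 by DESeq2, 235058, 183679, 3555 and 2619 by the total without the 10 most abundant transcripts of each library, and 1310500, 496040, 3176 and 2088 by the miRNA total. Without the 7 genes in the total they were 160052 and 104764 in vesicles, and the leading transcripts alone gave 137581 in vesicles labelled shDis3l2. Of 252 ratios of single genes under 9 alternatives, 239 kept their direction and call, and 3 crossed 1, all by label in vesicles: Gm12505 (1.47) and Cdc37l1 (1.13) with the miRNA total, and Gm6225 by TMM, at 0.997, where its interval holds 1. The miRNA total also made the label ratio of the summed genes in vesicles 2.64 and called 5 of the 7 apart and 5537 of all genes, while TMM, DESeq2, the total without the most abundant transcripts and a 4-fold limit called 0 of the 7. With its leading transcript alone, Gm43305 was also uncalled by label in vesicles (1.99). The ratio of Gm12505 with the label shDis3l2, vesicles over cells, fell under the 2-fold limit by TMM (1.71) and DESeq2 (1.66). The number of all genes called by label was 3942 in cells and 3322 in vesicles at a minimum of 10 counts, 163 and 447 at 1000 counts, and 154 and 280 at a 4-fold limit. Between vesicles and cells it was 13799 with shDis3l2 and 13242 with shNS at 10 counts, and 1307 and 983 at 1000 counts. Transcripts sharing a run with the 4 related genes numbered 39, and 159 at 20 nt and 25 at 50 nt. Depth limits the cell values most, where AI506816 had 458 and 360 counts.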
